A study of Mus musculus with 6 samples.

Results

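A set of 5 mouse miRNAs, mmu-miR-330-3p, mmu-miR-130b-5p, mmu-miR-350-3p, mmu-miR-28a-3p and mmu-miR-103-3p (written below without mmu, the prefix for mouse), was read at a low level in extracellular vesicles from hepatocytes of HFHC-fed mice and was almost absent from those of chow-fed mice. They were picked by name from the 474 miRNAs listed in the deposited tables because of that contrast in RPM (reads scaled to the authors' read total), so their difference between the diets is described below without a test. Extracellular vesicles are membrane-bound particles that cells release. The HFHC-EV group (3 libraries) held vesicles of primary hepatocytes from ApoE knockout mice on a diet labelled HFHC, and the Chow-EV group (3 libraries) those of primary hepatocytes from ApoE knockout mice on chow. All mice of both groups therefore lacked ApoE, the apolipoprotein through which lipoprotein remnants are cleared. The composition and length of the HFHC diet, the age and number of mice behind each library, and any pooling of mice were not given in the sources at hand; the labels call the libraries biological replicates numbered 1 to 3.

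A miRNA is cut from a hairpin transcript whose 5p and 3p strands can each be loaded into an Argonaute protein, and the loaded strand pairs with messenger RNAs mainly through its seed, bases 2 to 8. Usually one strand of a hairpin accumulates and the other is degraded, so the products of one transcript can differ widely in level. Of the members, miR-103-3p is the best known in metabolism. In mice it and its near copy miR-107-3p rise in the liver in obesity and dampen insulin sensitivity, and their hairpins lie in genes for pantothenate kinases, which start coenzyme A synthesis. miR-28 and miR-330-3p are known mostly from human tumour studies, and miR-130b-5p is the strand opposite miR-130b-3p, a repressor of the adipocyte regulator PPARG.

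The mature sequences, from RefSeq on GRCm38.p6, are shown because the seeds tell whether the members could share targets. Capitals mark the seed.
miR-330-3p: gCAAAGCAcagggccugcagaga
miR-130b-5p: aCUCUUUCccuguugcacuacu
miR-350-3p: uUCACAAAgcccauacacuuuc
miR-28a-3p: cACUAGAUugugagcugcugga
miR-103-3p: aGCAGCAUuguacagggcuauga
The 5 members had 5 different seeds, and 0 other listed miRNAs shared a seed with any of them, among the 348 listed miRNAs that matched a RefSeq sequence. They were 22 or 23 bases long, against a median of 22 for the 313 matched miRNAs with reads. Their GC content ran from 40.9% to 60.9%, around the median of 47.6% of those miRNAs. Their first bases were G, A, U, C and A in the order shown, so miR-130b-5p and miR-103-3p both began with A. Of the members, 4 are 3p products and 1 is a 5p product.

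The hairpins of the members lie in different genes. By GENCODE M21 on GRCm38, Mir330 is on chromosome 7 (19181465 to 19181562), within the microtubule-binding gene Eml2 on the same strand, where it overlaps an exon of a transcript annotated as non-coding. Mir350 is on chromosome 1 (176772325 to 176772423), within an intron of Cep170, a centrosomal protein gene, and Mir28a on chromosome 16 (24827855 to 24827940), within an intron of Lpp, a focal adhesion protein gene. Mir130b is on chromosome 16 (17124061 to 17124142), within an intron of 2610318N02Rik, 257 bases from Mir301b. The mature miR-103-3p comes from 2 hairpins that its sequence cannot tell apart: Mir103-1 on chromosome 11 (35782396 to 35782481), within an intron of Pank3, and Mir103-2 on chromosome 2 (131288052 to 131288137), within an intron of Pank2. In each case the host gene is on the strand of the hairpin.

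The libraries held 42250 to 65775 miRNA reads in HFHC-EV and 27673 to 40223 in Chow-EV, out of 19114753 to 20122476 reads in the authors' denominators. One read was thus worth 0.0497 to 0.0523 RPM in every library, and whole reads could be recovered from the RPM. The hepatocyte label was set against 3 hepatocyte miRNAs, all of them read in both groups, with summed levels of 13.5 to 26.9 RPM in HFHC-EV and 5.33 to 16.8 RPM in Chow-EV. Of these, miR-192-5p alone passed the test described below, at 12.4 to 13.0 RPM in HFHC-EV and 4.14 to 5.79 RPM in Chow-EV, and none of the other markers did. miR-122-5p, the defining one, was low outside the libraries numbered 1, at 0.938 to 14.0 RPM in HFHC-EV and 0.745 to 10.5 RPM in Chow-EV. The 3 erythroid markers summed to 11.2 to 142 RPM in HFHC-EV and 2.69 to 107.3 RPM in Chow-EV. The leukocyte markers, of which 3 of 4 are listed, summed to 0.678 to 5.53 RPM in HFHC-EV and 1.40 to 6.09 RPM in Chow-EV. The 4 endothelial and mesenchymal markers summed to 3.96 to 13.1 RPM in HFHC-EV and 1.04 to 7.48 RPM in Chow-EV. All 4 ranges overlapped between the diets, since the sums were highest in the libraries numbered 1. Between libraries of the same number, the hepatocyte, erythroid, and endothelial and mesenchymal sums were higher in HFHC-EV in 3 of 3 pairs, and the leukocyte sum was lower in 3 of 3. The erythroid sums, for one, were 142, 11.5 and 11.2 RPM in HFHC-EV and 107.3, 3.18 and 2.69 RPM in Chow-EV. The RPM of all miRNAs together was also higher in each pair, at 2406, 2202 and 3441 in HFHC-EV and 1531, 1375 and 2081 in Chow-EV. The part of other cell types and of the total in the results was not tested.

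miR-330-3p had 1.304, 1.198 and 1.099 RPM in HFHC-EV replicates 1 to 3 and 0 RPM in each Chow-EV library. These values stood for 25, 23 and 21 reads in HFHC-EV and none in Chow-EV. Of the members it alone had no Chow-EV read. With 3 reads over the group taken as the floor for a count of 0, its HFHC-EV level was 23.6-fold above that floor. This value takes the HFHC-EV reads as exact and is not a lower limit. Intervals and floors, here and below, leave out the spread between libraries. The intervals cover counting error only, and reads without molecular identifiers are not independent molecules. Since the members were chosen by this contrast, their ratios may be too high, and an interval that lies above equal levels is no test of the diet.

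miR-130b-5p had 1.148, 1.042 and 0.994 RPM in HFHC-EV (22, 20 and 19 reads) and 0.051, 0 and 0 RPM in Chow-EV, where it was read once, in replicate 1. The HFHC-EV libraries were nearly level with each other and all lay far above the Chow-EV ones. The ratio of its summed reads, corrected for the denominators, was 62.6 (exact 95% interval 10.8 to 2513).

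miR-350-3p had 1.043, 1.251 and 0.942 RPM in HFHC-EV (20, 24 and 18 reads) and 0.051, 0 and 0.103 RPM in Chow-EV (1, 0 and 2 reads). With 3 reads it was the member read most in Chow-EV, and its groups were also apart. Its ratio was 21.2 (6.93 to 106).

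miR-28a-3p had 1.565, 0.938 and 0.889 RPM in HFHC-EV (30, 18 and 17 reads) and 0.051, 0.05 and 0 RPM in Chow-EV (1, 1 and 0 reads). HFHC-EV replicate 1 was the high library here. Its ratio was 33.4 (8.87 to 281).

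miR-103-3p had 0.574, 1.146 and 1.256 RPM in HFHC-EV (11, 22 and 24 reads) and 0, 0.05 and 0.052 RPM in Chow-EV (0, 1 and 1 reads). The low library among the HFHC-EV ones was replicate 1, the one in which miR-28a-3p was high. Its ratio was 29.2 (7.73 to 247). In bulk vesicle RNA, fewer vesicles that carry a miRNA and fewer copies per vesicle cannot be told apart.

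**Figure D1:**
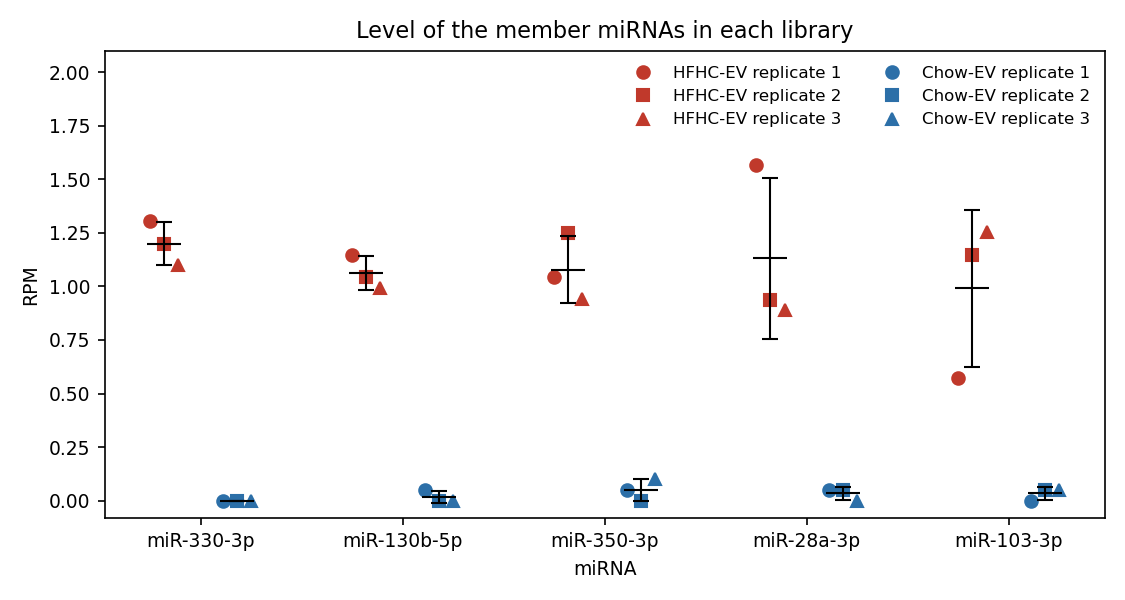
RPM of the 5 miRNAs in each library, with HFHC-EV in red to the left of Chow-EV in blue; marker shapes give the replicate number, and the black bars give the mean and SD of 3 libraries. Every HFHC-EV value lies at or above 0.574 RPM and every Chow-EV value at or below 0.103 RPM.

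The members lay close together in level. Their means were 1.20 ± 0.103 RPM in HFHC-EV and 0 RPM in Chow-EV for miR-330-3p, 1.13 ± 0.377 RPM in HFHC-EV and 0.0337 ± 0.0292 RPM in Chow-EV for miR-28a-3p, and 1.08 ± 0.158 RPM in HFHC-EV and 0.0513 ± 0.0515 RPM in Chow-EV for miR-350-3p (SD, n = 3 each). miR-130b-5p averaged 1.06 ± 0.0788 RPM in HFHC-EV and 0.0170 ± 0.0294 in Chow-EV, and miR-103-3p 0.992 ± 0.366 RPM in HFHC-EV and 0.0340 ± 0.0295 in Chow-EV. In HFHC-EV, no neighbours in this order differed by more than their SD. Levels are compared here as reads per mature miRNA. The RNA was ligated and amplified by PCR, and how evenly these steps took up different sequences was not tested.

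Together the members summed to 5.634, 5.575 and 5.18 RPM in the HFHC-EV libraries (99 to 108 reads each) and to 0.153, 0.1 and 0.155 RPM in the Chow-EV libraries (2 or 3 reads each). Of the 15 values in Chow-EV, 8 were 0 and the highest was 2 reads. The summed level was 5.46 ± 0.247 RPM in HFHC-EV and 0.136 ± 0.0312 RPM in Chow-EV (n = 3 each), a difference of 5.33 RPM. As a share of all listed miRNA reads the members stood at 0.234%, 0.253% and 0.151% in HFHC-EV (exact 95% intervals 0.192 to 0.283, 0.208 to 0.306 and 0.122 to 0.183) and at 0.0100%, 0.00723% and 0.00746% in Chow-EV (0.00207 to 0.0293, 0.000875 to 0.0261 and 0.00154 to 0.0218).

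The Chow-EV libraries held fewer miRNA reads, 97810 in all, against 154147 in the HFHC-EV libraries. A library floor of 3 reads is 0.156 or 0.157 RPM in HFHC-EV and 0.149 to 0.155 RPM in Chow-EV, and every Chow-EV value of a member was below it.

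All 5 members were higher in each HFHC-EV library than in any Chow-EV library. Over all 422 miRNAs with reads this held for 98, or 23.2%; the members were chosen by this contrast, so nothing is read from their count. On log2(RPM + 1), the scale of the fit over all miRNAs, which understates the change of low miRNAs, their log2 differences between HFHC-EV and Chow-EV ran from 0.93 for miR-103-3p to 1.14 for miR-330-3p. Their median was 1.02, and that of all 422 miRNAs was 0.042. With TMM scaling of the libraries the members ran from 0.75 to 0.95. With a pseudocount of 0.1 RPM they ran from 2.99 to 3.70. None of the members reached a mean of 1 RPM over the 6 libraries (0.513 to 0.600 RPM).

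The choice of members had no stated limit, so the same pattern was counted with 1: at most 3 reads over the Chow-EV libraries and at least 10 over the HFHC-EV libraries. It held for 40 of the 422 miRNAs (9.48%), the 5 members among them, and 10 of the 40 carry provisional names given by the authors, which are not repeated here. In 21 of the 40 there was no Chow-EV read at all, and 39 were read in every HFHC-EV library. The opposite pattern held for 21 miRNAs (4.98%), 8 of them provisionally named. Among these the most read in Chow-EV were miR-709, with 223 Chow-EV reads, miR-532-5p with 91, miR-193b-5p with 51, miR-12185-5p with 42 and miR-706 with 39, all with 0 reads in HFHC-EV.

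Ranked by HFHC-EV reads, the members were 5 of the first 6 with this pattern. The other was miR-411-5p, of the imprinted Dlk1-Dio3 cluster, with 65 reads in HFHC-EV and 2 in Chow-EV, the same counts as miR-28a-3p. The member with fewest HFHC-EV reads was miR-103-3p, with 57 in HFHC-EV and 2 in Chow-EV, and just outside came miR-25-5p, with 44 in HFHC-EV and 1 in Chow-EV. Below it the named ones were miR-425-3p with 38 HFHC-EV reads, miR-503-3p with 33, miR-379-5p with 29, miR-193a-5p with 28, miR-6943-5p and miR-702-5p with 26 each, and miR-92b-5p, miR-700-3p and miR-301a-5p with 24 each. Of these, miR-702-5p had 3 Chow-EV reads, miR-425-3p and miR-503-3p had 2 each, and the other six had none.

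**Figure D2:**
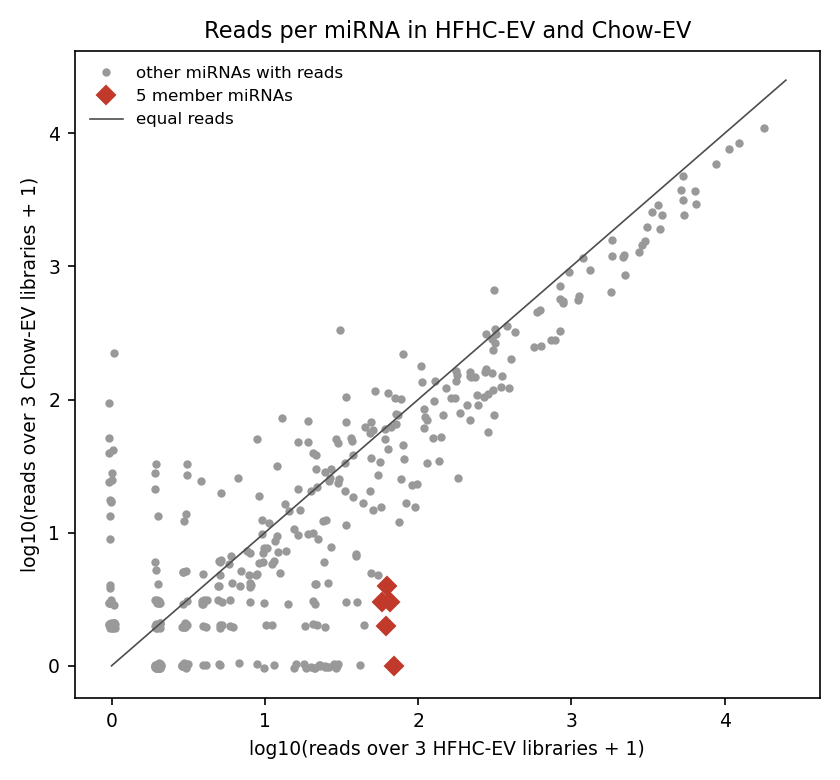
Reads of each of the 422 miRNAs summed over the 3 HFHC-EV libraries (x axis) and over the 3 Chow-EV libraries (y axis), both as log10(reads + 1), with grey points shifted slightly at random so that equal counts stay visible and a line at equal reads. The 5 members (red) sit at 57 to 69 HFHC-EV reads and 0 to 3 Chow-EV reads; miR-411-5p lies under one of them.

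The next question was whether the other products of the same hairpins, and the paralogs of the members, were near 0 in Chow-EV as well. Of 24 such partners named from their sequence or hairpin, 13 are listed and 12 had reads. miR-107-3p, miR-130b-3p and the other arms of Mir330, Mir350 and both miR-103 hairpins are not among the listed miRNAs and could not be analysed. Of the members, miR-28a-3p alone had the other product of its hairpin listed, so for the rest the question stayed without an answer. miR-107-5p was listed with 0 reads in all 6 libraries, which allows up to 3 reads in each.

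miR-28a-5p, from the same hairpin as miR-28a-3p, was read in every library. It had 0.417, 0.834 and 2.197 RPM in HFHC-EV (8, 16 and 42 reads) and 0.666, 0.845 and 1.5 RPM in Chow-EV (13, 17 and 29 reads). The groups overlapped, and the highest value of each diet was in the library numbered 3. Its mean was 1.15 ± 0.931 RPM in HFHC-EV and 1.00 ± 0.439 RPM in Chow-EV (n = 3 each). The log2 fold change was 0.038 (SE 0.343, 95% interval −0.81 to 0.88, limma adjusted p = 0.994), and its sign turned with TMM scaling, to −0.33 (limma adjusted p = 0.701). In summed reads the hairpin gave 65 of miR-28a-3p and 66 of miR-28a-5p in HFHC-EV, against 2 of miR-28a-3p and 59 of miR-28a-5p in Chow-EV. The even sums in HFHC-EV came from uneven libraries, with 30, 18 and 17 reads of miR-28a-3p beside 8, 16 and 42 of miR-28a-5p in replicates 1 to 3. In Chow-EV the 5p arm made up nearly all reads of the hairpin in each library. Since miR-28a-3p was chosen by the diet contrast, this shift between the arms was not tested. The sequences of both arms are repeated with the seed in capitals; they differ in seed and share at most 5 bases in a row.
miR-28a-3p: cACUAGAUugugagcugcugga
miR-28a-5p: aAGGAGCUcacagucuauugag

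miR-130b-5p belongs to the 5p side of the miR-130 and miR-301 family, whose 3p products share the seed AGUGCAA. Of the listed 5p relatives, miR-301a-5p differs from it at 6 positions and miR-130a-5p at 7. miR-130a-5p shares bases 2 to 7, nearly the whole seed, whereas miR-301a-5p differs at the seed and shares the 3′ end, 10 bases from position 13 to 22. The pair with miR-301a-5p is shown because both were near 0 in Chow-EV, with the shared end in capitals.
miR-130b-5p: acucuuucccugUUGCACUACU
miR-301a-5p: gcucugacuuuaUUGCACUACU
miR-301a-5p had 0.469, 0.313 and 0.471 RPM in HFHC-EV (9, 6 and 9 reads) and 0 RPM in each Chow-EV library. Its HFHC-EV level was 8.21-fold above the floor of 3 reads over the group, with the HFHC-EV reads taken as exact. With no overlap, it rose in HFHC-EV, with a log2 fold change of 0.50 (SE 0.085, limma adjusted p = 0.0147; higher in 3 of 3 HFHC-EV libraries). In limma without Chow-EV replicate 1, 2 or 3 the adjusted p became 0.0525, 0.0599 and 0.0592, and in edgeR with TMM 0.0687. A minimum mean of 1 RPM left it untested. The other alternatives kept the call, and the adjusted p over all of them lay between 0.00568 and 0.0687.

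Its partner from the same hairpin, miR-301a-3p, did not pass the test. It had 0.209, 0.208 and 1.831 RPM in HFHC-EV (4, 4 and 35 reads) and 0, 0 and 0.828 RPM in Chow-EV (0, 0 and 16 reads). Most of its reads in both diets came from the library numbered 3, and the groups overlapped (log2 fold change 0.39, SE 0.427, 95% interval −0.66 to 1.44, limma adjusted p = 0.609). miR-130a-3p was read in the libraries numbered 3 alone, with 10 reads in HFHC-EV and 11 in Chow-EV (log2 fold change −0.014, SE 0.252, limma adjusted p = 1.00). miR-130a-5p had 2 reads in HFHC-EV and 1 in Chow-EV, and miR-301b-3p, the cluster neighbour of miR-130b, had 1 in HFHC-EV and 0 in Chow-EV, too few to show a difference at this depth.

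**Figure D3:**
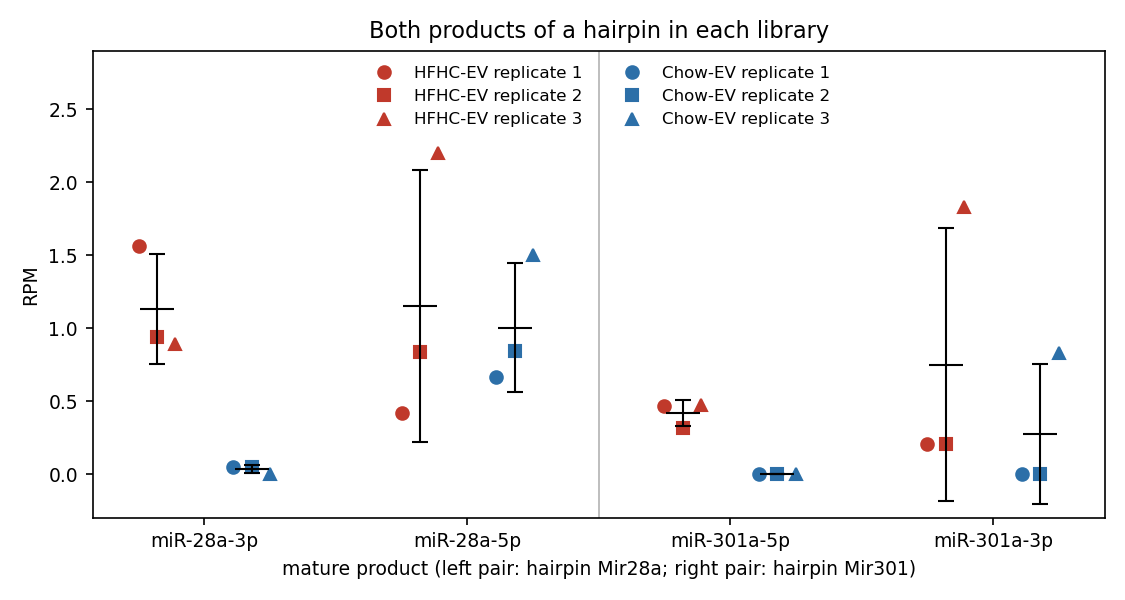
RPM of both mature products of the hairpins Mir28a (left pair) and Mir301 (right pair) in each library, with HFHC-EV in red left of Chow-EV in blue, marker shapes for the replicate number, and black bars for the mean and SD of 3 libraries. miR-28a-3p and miR-301a-5p are at or near 0 in Chow-EV, while miR-28a-5p and miR-301a-3p are highest in the libraries numbered 3 of both diets.

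For miR-103-3p the nearest copy is miR-107-3p, which differs from it by 1 base, G22C, counted from 1 at the 5′ end and with the base of miR-103-3p first. Both are shown to let a reader judge how a read of either could be assigned; capitals mark the 21 shared bases from the 5′ end.
miR-103-3p: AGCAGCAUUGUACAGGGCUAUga
miR-107-3p: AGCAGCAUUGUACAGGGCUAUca
miR-107-3p is not among the listed miRNAs, and the assignment of reads that match several miRNAs was not given in the sources at hand. The values of miR-103-3p may thus hold reads of miR-107-3p.

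miR-103-3p also carries at its 5′ end the stretch AGCAGCA, 7 bases, which in the miR-15/16 group of growth-restraining miRNAs forms the seed, 1 base further in.
miR-103-3p: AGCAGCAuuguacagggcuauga
miR-15b-5p: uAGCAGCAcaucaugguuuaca
In that group miR-15b-5p rose, with 6.36, 6.83 and 8.11 RPM in HFHC-EV and 1.64, 2.49 and 2.17 RPM in Chow-EV (log2 fold change 1.39, SE 0.196, limma adjusted p = 0.0137). With TMM scaling its log2 fold change was 0.81 and its limma adjusted p 0.0692; the adjusted p of all alternatives lay between 0.000649 and 0.145. miR-16-5p, the most abundant of the group, stood at 64.7 ± 20.4 RPM in HFHC-EV and 47.4 ± 12.8 RPM in Chow-EV (log2 fold change 0.43 and −0.30 with TMM scaling, limma adjusted p = 0.515 and 0.365). miR-322-5p stood at 5.14 ± 2.80 RPM in HFHC-EV and 2.02 ± 1.77 RPM in Chow-EV (limma adjusted p = 0.257), and miR-15a-5p at 2.26 ± 2.17 RPM in HFHC-EV and 0.912 ± 1.32 RPM in Chow-EV (limma adjusted p = 0.590). miR-195a-5p had 1 read in HFHC-EV and 1 in Chow-EV, and miR-497a-5p 1 in HFHC-EV and 3 in Chow-EV. Of the 4 more abundant members of the group, none was near 0 in all Chow-EV libraries. miR-15a-5p was low outside the libraries numbered 3, with 5, 1 and 47 reads in Chow-EV and 17, 22 and 91 in HFHC-EV replicates 1 to 3.

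Over the partners, 2 of 12 with reads rose and 0 fell in limma at an adjusted p under 0.05 (2 rose and 0 fell at an unadjusted p under 0.05; 2 rose in edgeR with the authors' denominator). Over all 422 miRNAs 60 rose (14.2%) and 22 fell (5.21%), and with TMM scaling 25 rose and 22 fell, so the share of partners that rose was near that of all miRNAs. With the replicate number as a block, 5 partners rose: miR-15a-5p, miR-15b-5p, miR-16-5p, miR-322-5p and miR-301a-5p, at limma adjusted p of 0.00937 (miR-15b-5p) to 0.0326 (miR-322-5p), while over all miRNAs 94 rose and 27 fell. With the block and TMM scaling, 64 miRNAs rose and 54 fell. Of the partners, miR-15b-5p and miR-301a-5p then rose and miR-16-5p fell (log2 fold change −0.30, limma adjusted p = 0.0193), while miR-15a-5p and miR-322-5p lost the call (limma adjusted p = 0.0865 and 0.104). In edgeR with the block, 55 miRNAs rose and 50 fell.

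Many miRNAs varied with the replicate number in these libraries, whereas of the members miR-28a-3p was high and miR-103-3p low in HFHC-EV replicate 1 and the rest were nearly level. The spread of the members among the 3 HFHC-EV libraries, as chi-square per degree of freedom against equal RPM, where counting error alone gives about 1, was 0.111 for miR-130b-5p, 0.168 for miR-330-3p and 0.440 for miR-350-3p. It was 2.41 for miR-28a-3p and 2.59 for miR-103-3p. For the partner arms it was 14.4 for miR-28a-5p and 22.4 for miR-301a-3p, and 0.380 for miR-301a-5p. Among the 38 other miRNAs with 40 to 100 HFHC-EV reads the median was 3.15 (0.0198 to 77.3), and 18 of them lay at or below the highest member. The 3 of those 38 with at most 3 Chow-EV reads lay between 0.693 and 3.04. These values are given as a description, since the members were chosen from these reads. HFHC-EV replicate 3 held 65775 miRNA reads, against 46122 and 42250 in the others, while it gave the fewest member reads.

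**Figure D4:**
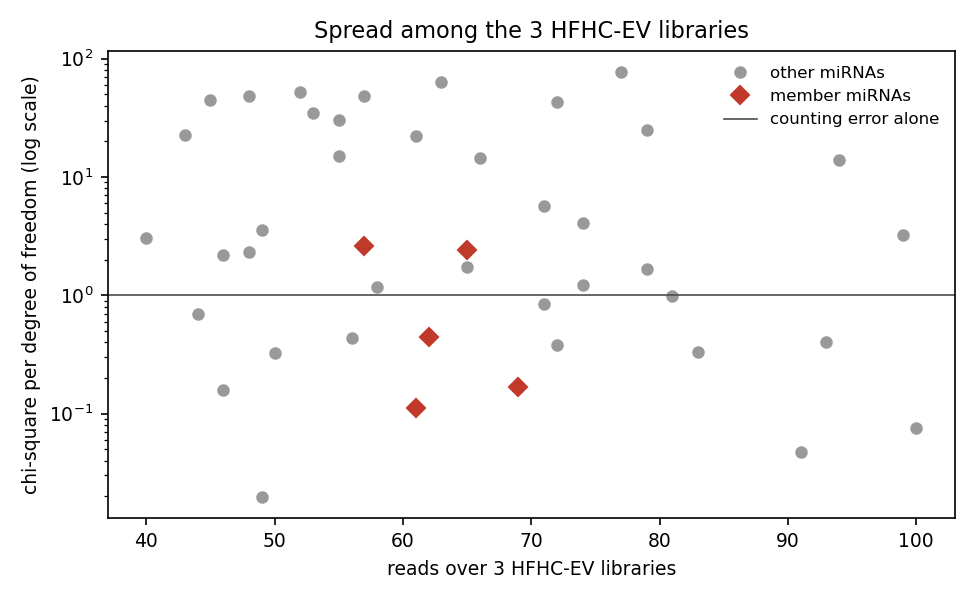
Spread among the 3 HFHC-EV libraries, as chi-square per degree of freedom on a log axis, against the reads summed over these libraries, for the 5 members (red) and the 38 other miRNAs with 40 to 100 such reads (grey). The line marks counting error alone; 3 members lie below it and the others at 2.41 and 2.59.

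The profiles most like the members were sought by the Pearson correlation of log2(RPM + 1) over the 6 libraries with the mean of the members, among 254 other miRNAs with at least 10 reads. The first 3 were provisionally named, at r of 0.996, 0.996 and 0.992. They were followed by miR-183-5p, an epithelial and sensory-cell miRNA, at r of 0.991, and miR-3473d at 0.989. miR-183-5p was read at 10.9 ± 0.717 RPM in HFHC-EV and 4.26 ± 0.483 RPM in Chow-EV, so a like profile here does not mean a level near 0 in Chow-EV. miR-3473d had 14 reads in HFHC-EV and 0 in Chow-EV. The points share library, diet and depth, and the values are a description.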

How the data were processed

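The authors deposited a table of RPM for each library, listing 474 miRNAs; the submitters' processing notes name Bowtie2 and GRCm38.p6. What the denominator counts, the miRNA annotation and the treatment of multiple matches were not given in the sources at hand. In each library the RPM values were multiples of 1 step, which is the worth of 1 read; divided by it, 100% of the values above 0 came within 0.1 of a whole number and were used as reads. Per the labels' protocols, RNA of the small size class was gel-cut, ligated and amplified by PCR. The total recovered depth was 27673 to 65775 miRNA reads per library.

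Diet was tested with limma-trend (limma 3.58.1, R 4.3.3) on log2(RPM + 1) over the 422 miRNAs with a read, with Benjamini-Hochberg adjustment at 0.05. Alternatives were other scalings, pseudocounts and filters, edgeR 4.0.16 and DESeq2 1.42.0 on recovered reads, the replicate block and leaving out each library. Scripts were tested on simulated data without pairing of the libraries. The share of changes found was checked there only for miRNAs read more deeply than the members, so that check does not cover low counts. Ratios of summed reads have exact (Clopper-Pearson) 95% intervals from scipy 1.17.1.

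The members, partners and lists were chosen with earlier results of these data known. Named were the members, the listed partners, miRNAs with at most 3 Chow-EV and at least 10 HFHC-EV reads (the 10 with most reads, beside the partner miR-301a-5p, which also has the pattern) and the reverse (5), and the 5 most correlated profiles. Deviations from the diet means correlated at 0.903, 0.870 and 0.933 between libraries of the same number, so the numbers pair the libraries, although no label says that they mark a shared mouse or day. The main fit held diet only and did not use this pairing, so its p-values measure the spread between libraries within a diet. Those with the replicate block measure the spread of the differences between libraries of the same number.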

Additional observations from a re-analysis of the deposited data

How the results depend on the processing

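The summed member level was higher in HFHC-EV under every setting run. The difference was 4.09 RPM with TMM scaling, 4.24 with scaling to the listed miRNA reads and 4.37 without miR-103-3p, against 5.33 as reported. It was 5.24 to 5.47 RPM when single libraries were left out. The members were chosen by this contrast, so its direction was fixed in advance and only its size is described. The 82 miRNAs called over all became 47 with TMM scaling, 44 with RLE scaling, 28 with scaling to listed miRNA reads, 30 at a mean of at least 1 RPM (104 tested, none of them a member), 46 in edgeR with the authors' denominator and 2 in edgeR with TMM (0 higher and 2 lower; 45 and 40 at an unadjusted p under 0.05), and 19 to 69 without single libraries, the lowest without Chow-EV replicate 2; the count moved by over 1.5 times without any library but HFHC-EV replicate 1. The 2 partner calls became 1 with TMM, RLE or listed-read scaling (miR-301a-5p) and at a mean of at least 1 RPM (miR-15b-5p). They became 0 in edgeR with TMM (2 at an unadjusted p under 0.05) and 5 with the replicate block. In edgeR with the replicate block there were 4, with 3 higher and 1 lower (miR-16-5p). Without single libraries there were 1 or 2 (1, miR-15b-5p, when any Chow-EV library was left out). For miR-28a-5p the log2 fold change turned to −0.33 with TMM scaling, with and without the block, −0.24 with RLE and −0.31 with listed-read scaling. It was −0.021 with a pseudocount of 0.1, −0.58 in edgeR with TMM, −0.66 in edgeR with TMM and the block, and −0.41 in DESeq2. In edgeR with the authors' denominator it kept its sign, at 0.19. Without single libraries it ran from −0.29 to 0.30, and no setting called miR-28a-5p. For miR-16-5p the log2 fold change turned to −0.30 with TMM scaling, with and without the block, −0.10 with RLE and −0.25 with listed-read scaling. It was −0.30 in edgeR with TMM, −0.31 in edgeR with TMM and the block, and −0.11 in DESeq2. In edgeR with the authors' denominator it kept its sign, at 0.45. miR-16-5p was called higher with the block in limma (limma adjusted p = 0.0158). It was called lower in edgeR with TMM and the block (edgeR adjusted p = 0.00394). Without single libraries miR-130a-3p ran from −0.22 to 0.20 and miR-301a-3p from −0.017 to 0.68. The causes were not tested. At this depth, members and partners with a few reads per library can show only large differences.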

Other observations

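Of the 40 miRNAs with at most 3 Chow-EV and at least 10 HFHC-EV reads, 10 had the other product of their hairpin listed. In 7 of these 10 it had more than 3 Chow-EV reads, though miR-18a-5p and miR-193a-3p had only 4 each. The rest were low in both diets: miR-503-5p had 2 reads in HFHC-EV and 0 in Chow-EV, miR-369-5p 2 and 1, and miR-471-5p 0 and 0. The count was not set against a share over all miRNAs. miR-25-3p had 276 reads in HFHC-EV and 167 in Chow-EV, beside 44 and 1 of miR-25-5p. miR-425-5p had 48 reads in HFHC-EV and 14 in Chow-EV, beside 38 and 2 of miR-425-3p, and miR-92b-3p had 32 in HFHC-EV and 10 in Chow-EV, beside 24 and 0 of miR-92b-5p. miR-18a-5p had 3 in HFHC-EV and 4 in Chow-EV, beside 19 and 1 of miR-18a-3p. This last pair is outside the 10 most read and was chosen after its values were seen.

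A pair of paralogs stood on opposite sides: miR-193a-5p had 28 reads in HFHC-EV (9, 8 and 11) and 0 in Chow-EV, and miR-193b-5p had 0 in HFHC-EV and 51 in Chow-EV (23, 11 and 17). Their 3p products, miR-193a-3p and miR-193b-3p, had 2 and 7 reads in HFHC-EV and 4 and 3 in Chow-EV. These were picked after their values were seen and were not tested.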
